A study of Homo sapiens with 6 samples.

Results

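The LINC and antisense long noncoding RNA genes of HepG2 were followed here from a control line to a line with reduced CHROME. They were chosen by name and by measured level. A gene entered when its symbol was LINC with a number, or ended in -AS and 1 digit, and when its mean over the 6 libraries was at least 10 normalized counts, that is, reads divided by a library's size factor. Of 284 such names among 23368 distinct genes, 133 reached that mean, 49 of them LINC genes and 84 antisense genes. The other 151 lay below it, and 50 of those were listed at 0 in every library. Choosing on the mean over all 6 libraries uses no difference between the groups. All 133 genes passed the filter on low reads and were tested, including 7 whose mean was under 10 in 1 of the groups (2 in EV, 5 in shCHROME).

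HepG2 is an established human liver cancer line that secretes many plasma proteins of the hepatocyte. The cells stably carried a pLKO lentivirus with a short hairpin RNA, packaged in the embryonic kidney line HEK293T. In the group called shCHROME (titled SH3, replicates a to c) the hairpin was aimed at all variants of CHROME, a long noncoding RNA, and in the group called EV (replicates a to c) it was a non-targeting control. Both groups therefore went through transduction and differ in the hairpin, with 1 hairpin construct per group, and CHROME itself was not analysed here. The labels give total RNA and a TruSeq RNA kit, and do not say whether polyadenylated RNA was selected. No label ties a replicate to its own culture or transduction, so each p-value measures spread between libraries that may be technical. In a bulk lysate, fewer cells that carry a transcript and fewer transcripts per cell cannot be told apart.

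Long noncoding RNAs are transcribed, spliced and capped like messenger RNAs but are not known to encode a protein. LINC is the symbol for those that lie between protein-coding genes, and the -AS suffix marks a gene on the strand opposite to the named coding gene, which it may overlap or face at a shared start site. Many are present in few copies, many are trimmed or destroyed by the nuclear exosome, and some act on the gene beside them, host small nucleolar RNAs in their introns, or were later found to encode small proteins. In liver cells LINC00261 lies beside FOXA2, which encodes a transcription factor of the hepatocyte.

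Genes that passed the test are introduced here by their start sites. Of 7 genes called, RefSeq (GRCh38.p14) gave a start under a noncoding entry for 5, and the 250 bases before to 50 after that start are printed below with every CG dinucleotide in capitals. They were chosen by the calls, so any contrast between the 1 gene that rose and the 4 that fell is a description only. The coordinates are chr2:70086966-70087265 (minus strand) for PCBP1-AS1, chr20:48359661-48359960 (plus strand) for LINC00494, chr21:41715726-41716025 (minus strand) for LINC00479, chr2:87455177-87455476 (plus strand) for LINC00152, whose current symbol is CYTOR, and chr5:112160276-112160575 (plus strand) for EPB41L4A-AS1.
PCBP1-AS1: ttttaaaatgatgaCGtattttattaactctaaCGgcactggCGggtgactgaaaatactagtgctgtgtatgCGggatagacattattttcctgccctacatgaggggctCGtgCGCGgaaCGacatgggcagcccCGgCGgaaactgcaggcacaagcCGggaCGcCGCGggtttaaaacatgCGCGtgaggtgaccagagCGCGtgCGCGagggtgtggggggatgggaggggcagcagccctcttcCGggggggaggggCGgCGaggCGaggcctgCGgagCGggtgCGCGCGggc
LINC00494: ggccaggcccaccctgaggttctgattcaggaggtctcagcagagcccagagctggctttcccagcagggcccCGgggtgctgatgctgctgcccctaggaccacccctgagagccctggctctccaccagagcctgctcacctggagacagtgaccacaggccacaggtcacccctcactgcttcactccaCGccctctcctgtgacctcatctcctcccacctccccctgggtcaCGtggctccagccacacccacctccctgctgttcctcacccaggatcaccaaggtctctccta
LINC00479: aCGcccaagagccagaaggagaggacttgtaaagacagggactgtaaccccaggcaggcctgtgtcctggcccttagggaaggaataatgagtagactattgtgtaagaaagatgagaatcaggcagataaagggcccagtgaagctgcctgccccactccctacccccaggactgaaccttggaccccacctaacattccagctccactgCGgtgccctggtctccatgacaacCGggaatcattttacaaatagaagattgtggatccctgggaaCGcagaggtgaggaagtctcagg
LINC00152: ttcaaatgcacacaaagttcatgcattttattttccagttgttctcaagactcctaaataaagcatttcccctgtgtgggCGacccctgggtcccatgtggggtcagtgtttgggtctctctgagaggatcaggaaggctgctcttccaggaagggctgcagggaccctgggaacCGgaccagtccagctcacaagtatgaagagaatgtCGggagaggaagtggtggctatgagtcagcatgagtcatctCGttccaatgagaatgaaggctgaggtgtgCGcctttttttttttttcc
EPB41L4A-AS1: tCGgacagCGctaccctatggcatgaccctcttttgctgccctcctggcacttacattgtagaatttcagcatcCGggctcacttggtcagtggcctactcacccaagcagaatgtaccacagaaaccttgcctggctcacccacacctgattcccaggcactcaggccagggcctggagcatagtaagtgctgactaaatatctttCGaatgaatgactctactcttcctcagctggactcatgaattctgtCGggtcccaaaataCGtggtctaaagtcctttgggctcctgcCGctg

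The PCBP1-AS1 window held 29 CG dinucleotides, which is 1.08 times the number expected from its C and G content. That ratio was 0.11 for LINC00494 with 3 CG, 0.19 for LINC00479 with 4, 0.27 for LINC00152 with 5 and 0.35 for EPB41L4A-AS1 with 7. A start in a CpG island has a ratio of at least 0.6 by the usual definition. Of the 133 genes, 98 had a RefSeq promoter window, with a median ratio of 0.32 over 34 LINC genes and 0.77 over 64 antisense genes, beside 0.58 over all 35116 windows. Among these genes, 54 had a ratio of at least 0.6, of which 1 was called higher (1.85%) and 0 lower. The other 44 had a smaller ratio, of which 0 were called higher and 4 lower (9.09%). Over all tested genes with a window, 6.41% of the 7711 with a ratio of at least 0.6 were called lower and 3.77% higher, and of the 2076 below it 11.1% were called lower and 3.08% higher. The counts in the set are small and are given as a description.

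A search of both strands of these windows for 6 exact motifs found few in the called genes. The TATA box (TATAAA) and the site of HNF4 (CAAAGTCCA), a hepatocyte nuclear receptor, were in none of the 5 windows. Positions are counted from 1 at the start site, with negative numbers before it. The CCAAT box (CCAAT) began at position 6 of LINC00152. The E-box (CACGTG), which reads the same on both strands, began at position -15 of LINC00494. In PCBP1-AS1 the GC box (GGGCGG) began at position 11, and the half-site of HNF1 (GTTAAT) lay on the other strand from position -228. No 2 of these motifs overlapped. Among all windows the shares were 11.5% for the TATA box, 34.6% for the CCAAT box, 45.0% for the GC box, 6.88% for the HNF1 half-site, 0.384% for the HNF4 site and 7.26% for the E-box. Among the 98 windows of the set they were 6.12%, 31.6%, 49%, 7.14%, 0% and 3.06%, in the same order. A match shows only that the letters are there.

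Of the 133 genes, 1 rose in shCHROME cells and 6 fell by limma with Benjamini-Hochberg adjustment over all 14598 genes tested, which is 5.26% of the set. Over all genes tested 10.5% were called, 3.64% higher and 6.87% lower. The 6 that fell were 5 LINC genes and 1 antisense gene, and the 1 that rose was an antisense gene. Calls in either direction came to 10.2% of the 49 LINC genes and 2.38% of the 84 antisense genes, beside the same 10.5%. The median log2 difference, shCHROME minus EV on the log2(value + 1) scale, was 0.02 over the set and 0.01 over all genes, and 69 genes of the set lay above 0 and 64 below. At an unadjusted limma p under 0.05, 21 of the 133 passed, beside 3527 of all 14598 genes tested. The groups did not overlap in 25 of the 133 genes (18.8%), 10 higher and 15 lower in shCHROME, while 28.0% of all genes tested had groups that did not overlap. When libraries were scaled to their totals, 3 genes of the set were higher and 3 lower, and over all genes 936 were higher and 702 lower, with the median of all genes moved to 0.06.

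LINC00494, an intergenic RNA of chromosome 20 for which no role is given here, had the smallest adjusted p in the set. Its normalized counts were 500.6, 501.8 and 537.7 in EV replicates a to c and 339.1, 365.0 and 364.6 in shCHROME replicates a to c. Every shCHROME library lay below every EV library, with no overlap. The mean went from 513 ± 21.1 to 356 ± 14.9 (SD, n = 3 per group), a fall of 1.44-fold with a log2 difference of -0.53 ± 0.09 (SE) and a limma adjusted p of 0.00126. The call held in all 16 alternative settings. Its neighbour SULF2, which encodes an extracellular sulfatase, had a log2 difference of -0.14 (limma adjusted p = 0.354).

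PCBP1-AS1 was the 1 gene of the set that rose. It runs opposite to PCBP1, an intronless gene for a poly(C)-binding protein, and overlaps it. Its normalized counts were 628.8, 577.7 and 567.5 in EV and 823.8, 709.2 and 765.3 in shCHROME. The lowest shCHROME library lay above the highest EV library. The rise was 1.29-fold, from 591 ± 32.8 to 766 ± 57.3 (SD, n = 3 per group), a log2 difference of 0.37 ± 0.09 (SE) with a limma adjusted p of 0.00945, and the call held in all 16 alternatives with adjusted p up to 0.0493. PCBP1 itself was listed at 4337, 3499 and 4321 in EV and at 4214, 4279 and 4348 in shCHROME. Those groups overlapped (log2 difference 0.09, limma adjusted p = 0.518). The ratio of the antisense count to the sense count in each library was 14.5%, 16.5% and 13.1% in EV and 19.5%, 16.6% and 17.6% in shCHROME. Whether counting used strand is not stated, so reads from the stretch that both genes share cannot be told apart.

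LINC00341 fell 1.5-fold. Its values were 165.0, 179.2 and 218.1 in EV and 116.8, 126.1 and 129.7 in shCHROME, without overlap (log2 difference -0.58, limma adjusted p = 0.0148). When EV c was left out it did not pass. RefSeq now holds this symbol as a synonym of SYNE3, a gene for a nesprin of the nuclear envelope, so it may be transcript of a coding gene. The table also lists that gene under its older symbol C14orf49, at 486.1, 466.2 and 552.6 in EV and 389.5, 449.7 and 397.5 in shCHROME (log2 difference -0.28, limma adjusted p = 0.0833). Of the RefSeq neighbours of that locus, CLMN, which encodes calmin, fell by 0.38 on the log2 scale (limma adjusted p = 0.0102), and GLRX5 had a log2 difference of 0.07 (adjusted p = 0.531).

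LINC00479, an intergenic RNA of chromosome 21, had the largest difference among the called genes. Its values were 97.0, 91.4 and 66.7 in EV and 46.7, 51.7 and 46.8 in shCHROME. The 3 shCHROME libraries lay close together and below EV c, the lowest control. The fall was 1.72-fold (log2 difference -0.78 ± 0.20 SE, limma adjusted p = 0.0187), and it did not pass in 3 alternatives, each of which left out 1 library (EV a, EV b or shCHROME c). Of its neighbours, RIPK4 had a log2 difference of 0.05 (limma adjusted p = 0.807). TMPRSS2, on the other side, had too few reads to be tested, with 11.1, 10.1 and 11.9 normalized counts in EV and 4.67, 1.03 and 8.50 in shCHROME, without overlap.

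LINC00152, known as CYTOR, is raised in many tumours. Its values were 333.4, 259.6 and 291.7 in EV and 249.4, 218.1 and 193.5 in shCHROME, and the groups were close but did not overlap. It fell 1.34-fold (log2 difference -0.42, limma adjusted p = 0.0452), and the call was lost in 7 of 16 alternatives, among them when EV a, EV c, shCHROME b or shCHROME c was left out. A near-identical copy of this gene, MIR4435-2HG, lies on the same chromosome, and the sources do not say how reads were divided between the copies, so its value is uncertain.

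EPB41L4A-AS1, which hosts the small nucleolar RNA SNORA13, fell 1.15-fold. Its values were 1882, 1976 and 1835 in EV and 1686, 1622 and 1633 in shCHROME, without overlap (log2 difference -0.20, limma adjusted p = 0.0482). The sense gene EPB41L4A, which encodes a cytoskeletal band 4.1 protein, was listed at 377, 399 and 370 in EV and at 404, 375 and 388 in shCHROME, with groups that overlapped (log2 difference 0.03, limma adjusted p = 0.909). Relative to the sense count, the antisense count was 499%, 496% and 495% in EV and 417%, 432% and 421% in shCHROME. This pair overlaps too, with the same limit on strand. LINC00176, which RefSeq now calls C20orf204 and holds as protein coding, fell 1.19-fold and was the only called gene of the set whose groups overlapped, with 2331, 2162 and 2028 in EV and 1673, 2084 and 1718 in shCHROME (log2 difference -0.26, limma adjusted p = 0.0498). EPB41L4A-AS1 lost its call in 9 of 16 alternatives, among them with each EV library left out in turn and with shCHROME b or c left out. LINC00176 lost its call in 13 alternatives, among them with each library but shCHROME b left out in turn.

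**Figure D1:**
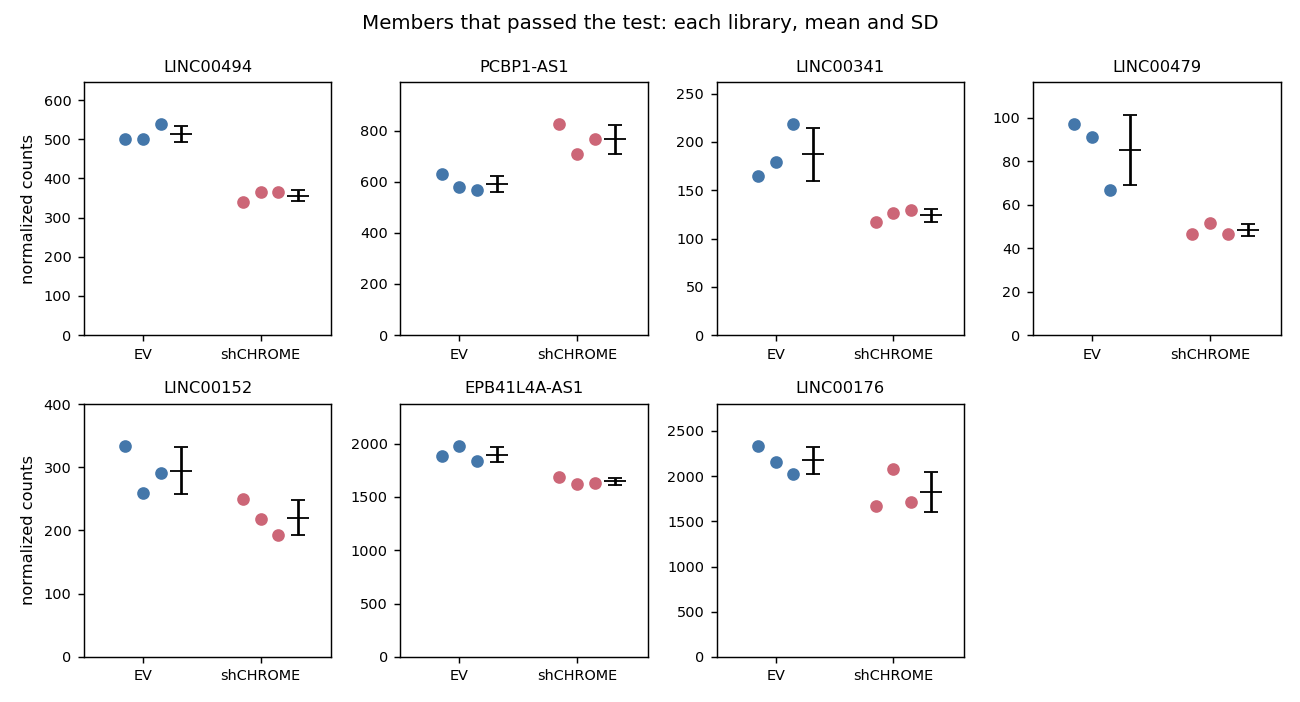
Normalized counts in each library (points; replicates a to c from left to right) with the mean and SD of the 3 libraries per group, for the 7 genes of the set that passed the test. PCBP1-AS1 is the 1 gene with higher values in shCHROME, and LINC00176 is the 1 gene whose groups overlap.

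In the authors' deposited table, 5 of the 133 genes had an adjusted p under 0.05, 4 lower and 1 higher, beside 9.04% of all genes with an adjusted p there. The authors' deposited table gives for some genes a mean that is not that of these 6 libraries (for LINC00273 a mean of 2859, against 2335 here), so its calls may rest on further libraries, not analysed here. Those 5 were LINC00494, PCBP1-AS1, LINC00341, LINC00479 and LINC00152. For the other 2, the authors' deposited table gave an adjusted p of 0.0637 for EPB41L4A-AS1 and 0.06 for LINC00176.

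The counts per level show what these libraries could resolve. Of 58 genes with a mean of 10 to 50 normalized counts, 0 passed the limma test and 4 had an unadjusted p under 0.05. Of all 2178 genes tested at that level, 280 had an unadjusted limma p under 0.05. DESeq2 and edgeR called none of these 58 either. The median half-width of the 95% interval there was 0.71 on the log2 scale. That interval is not adjusted for the number of genes tested, so a typical gene of this level needed a larger change to be called. Differences among the 58 ran from -0.84 to 0.94 without a call. Over all genes of the same level 3.21% were called. Of 41 genes between 50 and 200, 2 fell (LINC00479 and LINC00341) and 0 rose, with a median half-width of 0.40 and 8.67% called over all genes of that level. Of 34 genes at 200 and above, 1 rose and 4 fell (14.7%), with a median half-width of 0.21 and 12.5% called over all genes of that level.

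**Figure D2:**
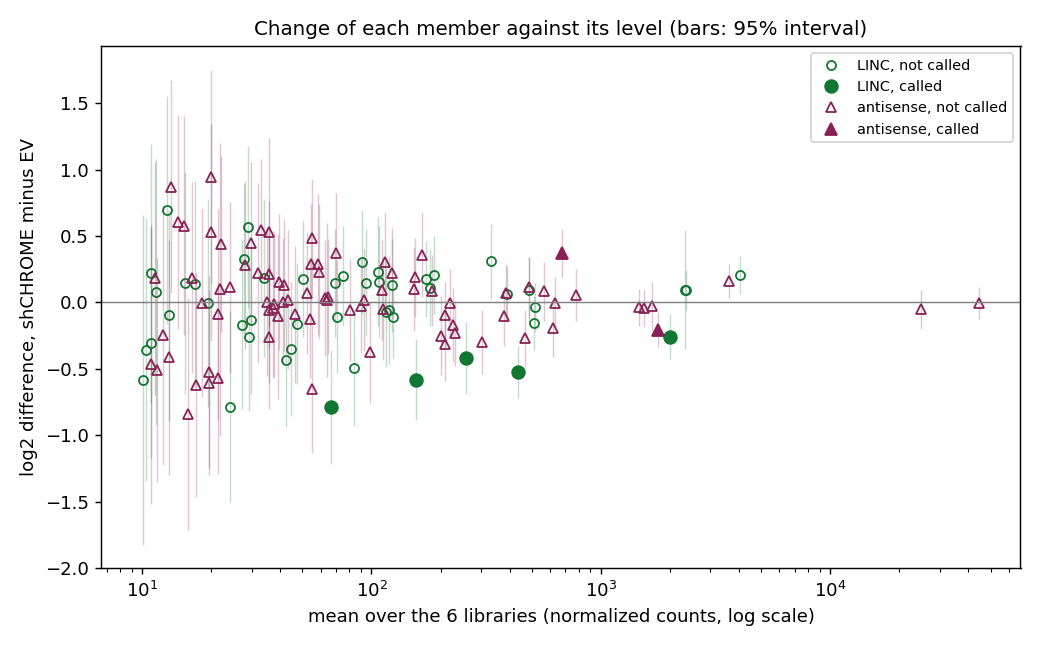
Log2 difference (shCHROME minus EV) of each of the 133 genes against its mean over the 6 libraries in normalized counts on a log axis, with 95% intervals as bars, circles for LINC genes, triangles for antisense genes and filled symbols for called genes. The intervals narrow from left to right, and no called gene has a mean under 50.

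The sum over the set was carried by a few genes. C17orf76-AS1, now SNHG29, took 42.2% of the summed normalized counts and ZNFX1-AS1, now ZFAS1, took 23.6%. Both host small nucleolar RNAs, which guide modification of ribosomal RNA. C17orf76-AS1 was listed at 44023, 46590 and 42669 in EV and 44681, 42625 and 45665 in shCHROME. ZNFX1-AS1 was listed at 26299, 26722 and 22724 in EV and 25352, 22099 and 25672 in shCHROME. Neither pair of groups was separated (log2 differences 0.00 with a 95% interval of -0.12 to 0.12, and -0.05 with an interval of -0.20 to 0.10). Per kilobase of the longest GENCODE 29 transcript, their EV levels were 26731 and 23487 normalized counts, followed by LINC00493 at 3389. The reads of all 133 genes came to 3112 to 3325 RPM (reads scaled by the library total) in EV and 3298 to 3429 RPM in shCHROME.

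LINC00261, an RNA of definitive endoderm and liver transcribed beside FOXA2, was the most abundant LINC gene. Its values were 4008, 3486 and 3755 in EV and 3939, 4465 and 4596 in shCHROME, where replicate a lay within the EV range. The log2 difference was 0.21 (limma adjusted p = 0.0614). It passed in 3 of 16 alternatives, namely DESeq2, scaling to library totals and the fit that left out shCHROME a. FOXA2 had a log2 difference of 0.09 (limma adjusted p = 0.439).

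Next in abundance among LINC genes were LINC00493, LINC00273, LINC00176 and LINC00094. LINC00493, which RefSeq calls SMIM26 and which encodes a small mitochondrial membrane protein, was listed at 2278, 2416 and 2118 in EV and 2659, 2260 and 2364 in shCHROME, with overlap (log2 difference 0.10, limma adjusted p = 0.461). LINC00273, which lies in a duplicated stretch of chromosome 16, varied most among the abundant genes, with 2770, 1403 and 2585 in EV and 1688, 3454 and 2108 in shCHROME. The sources do not say how reads were divided between copies of that stretch, so the value of LINC00273 is uncertain. The cause of its spread was not tested. LINC00094, now BRD3OS, was listed at 525, 540 and 509 in EV and 529, 513 and 495 in shCHROME (95% interval of the log2 difference -0.22 to 0.15).

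Other abundant antisense genes were FGD5-AS1 and HOXD-AS1, now HAGLR. FGD5-AS1 was listed at 3428, 3510 and 3342 in EV and 4135, 3620 and 3749 in shCHROME, without overlap (log2 difference 0.16, limma adjusted p = 0.113), and it passed in 1 alternative, scaling to library totals. Its sense partner FGD5, an exchange factor of endothelial cells, had 0 or 1 read in each library and was not tested. HOXD-AS1, from the cluster of HOXD developmental genes, had groups that overlapped, 1923, 1437 and 1704 against 1536, 1661 and 1741 (log2 difference -0.03, limma adjusted p = 0.895).

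A list of 62 noncoding RNAs with a described role contained 14 genes of the set. Of these, LINC00152 fell, PCBP1-AS1 rose, and 12 did not pass, beside 10.5% called over all genes tested. LINC00511, an RNA raised in several tumours, had 129, 89.6 and 76.7 in EV and 78.5, 55.8 and 72.3 in shCHROME, with overlap and an adjusted p of 0.158 in limma. LINC00116, which encodes the mitochondrial microprotein mitoregulin (MTLN), had a log2 difference of 0.21 (limma adjusted p = 0.404). OIP5-AS1, also called cyrano, had means of 1481 ± 29.3 and 1445 ± 55.1 (SD, n = 3 per group) and a 95% interval of -0.17 to 0.10. ZEB1-AS1 (log2 difference 0.30), MCM3AP-AS1 (0.22), ST7-AS1 (0.13) and CDKN2B-AS1 (0.11), known as ANRIL, had limma adjusted p between 0.324 and 0.873. CDKN2B-AS1 had 19.9 to 28.3 normalized counts in EV and 20.7 to 33.0 in shCHROME, and its interval ran from -0.53 to 0.76.

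The names do not all mark noncoding genes in current annotation. RefSeq had an entry for 131 of the 133, 35 of them under another symbol. It classed 118 as long noncoding RNA, 9 as protein coding, 3 as transcribed pseudogenes and 1 as antisense RNA. The 9 were LINC00094 (BRD3OS), LINC00116 (MTLN), LINC00176 (C20orf204), LINC00282 (TMEM272), LINC00493 (SMIM26), LINC00514 (GREP1), LINC00085 (SPACA6), LINC00341 (SYNE3) and HNRNPU-AS1 (HNRNPU). Of these 9, 2 fell and 0 rose (22.2%), and of the 118 classed as long noncoding, 4 fell and 1 rose (4.24%), beside 10.5% called over all genes. The 9 are too few to set against that share. Where the sources differ in this way, a read may belong to a coding transcript. GENCODE 29 gave a length for 126 genes, with a median of 2248 bases for the longest transcript, and 22 of them had 1 exon there.

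For 80 of the 84 antisense genes the symbol before the hyphen was in the table, giving 78 distinct sense partners, of which 72 were tested. The 4 without one were C17orf76-AS1, 2 antisense genes of the HOXD cluster and MLK7-AS1. The coding gene beside C17orf76-AS1 is listed as FAM211A and had a log2 difference of 0.15 (limma adjusted p = 0.38). MLK7 is listed as ZAK and had a log2 difference of 0.13 (limma adjusted p = 0.467). In GENCODE 29, 67 of the 80 pairs overlapped on opposite strands, 9 faced head to head, 1 lay tail to tail and 3 could not be placed. Whether counting used strand is not stated in the labels or notes, so reads from the shared part of an overlapping pair cannot be told apart. Of the 72 partners, 1 rose and 1 fell (2.78%, beside 10.5% over all genes tested and 12.5% over those with a mean of at least 200), with a median log2 difference of 0.00 and a median half-width of the 95% interval of 0.16. No pair had both genes called, by limma. In 32 of the 74 pairs with both genes tested, the 2 log2 differences had the same sign, 25 of 61 among overlapping pairs and 6 of 9 among pairs that face head to head. Across the 74 pairs Pearson's r was 0.13 and Spearman's rho 0.07, as a description over genes that share the same 6 libraries, and r was 0.08 without IGF2-AS1.

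**Figure D3:**
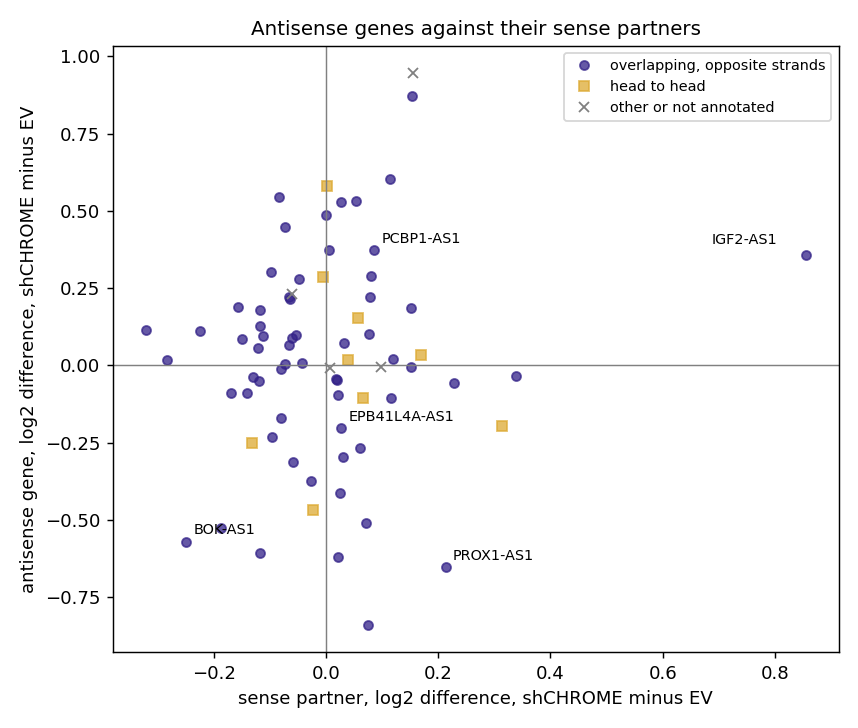
Log2 difference (shCHROME minus EV) of each antisense gene (vertical axis) against that of its sense partner (horizontal axis) for 74 pairs, with symbols for the arrangement of the pair. Most sense partners lie within 0.2 of 0 while the antisense genes spread wider, and IGF2 stands apart at 0.85.

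Both partners that passed the test are named here after their values were seen. IGF2, which encodes an imprinted fetal growth factor, rose 1.81-fold, from 314, 239 and 392 in EV to 464, 739 and 509 in shCHROME, without overlap (log2 difference 0.85, limma adjusted p = 0.00239), and held in all 16 alternatives. IGF2-AS1, on the opposite strand of that locus, had 154, 156 and 125 in EV and 160, 219 and 182 in shCHROME. Its groups did not overlap either, but the closest libraries nearly met, and the limma adjusted p was 0.149 (log2 difference 0.36). BOK, which encodes a pore-forming protein of the BCL2 family, fell 1.19-fold, from 6303, 5439 and 5861 to 4646, 5321 and 4840 (log2 difference -0.25, limma adjusted p = 0.0204), and lost that call in 6 of 16 alternatives, 4 of which left out 1 library (EV a, EV c, shCHROME a or shCHROME c). BOK-AS1 had 16.9 to 31.1 normalized counts in EV and 12.1 to 19.6 in shCHROME, with overlap and an adjusted p of 0.331 in limma.

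PROX1-AS1 and its partner are given as the antisense gene closest to the threshold, likewise chosen after values were seen. PROX1 encodes a homeobox factor of hepatocytes and lymphatic endothelium. PROX1-AS1 had 56.9, 85.0 and 61.7 in EV and 34.6, 48.6 and 44.6 in shCHROME, without overlap (log2 difference -0.65, limma adjusted p = 0.0784). PROX1 had 2169, 1737 and 1967 in EV and 2073, 2428 and 2295 in shCHROME, with overlap (log2 difference 0.21, limma adjusted p = 0.102). Neither gene passed, so no opposite change is shown.

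**Figure D4:**
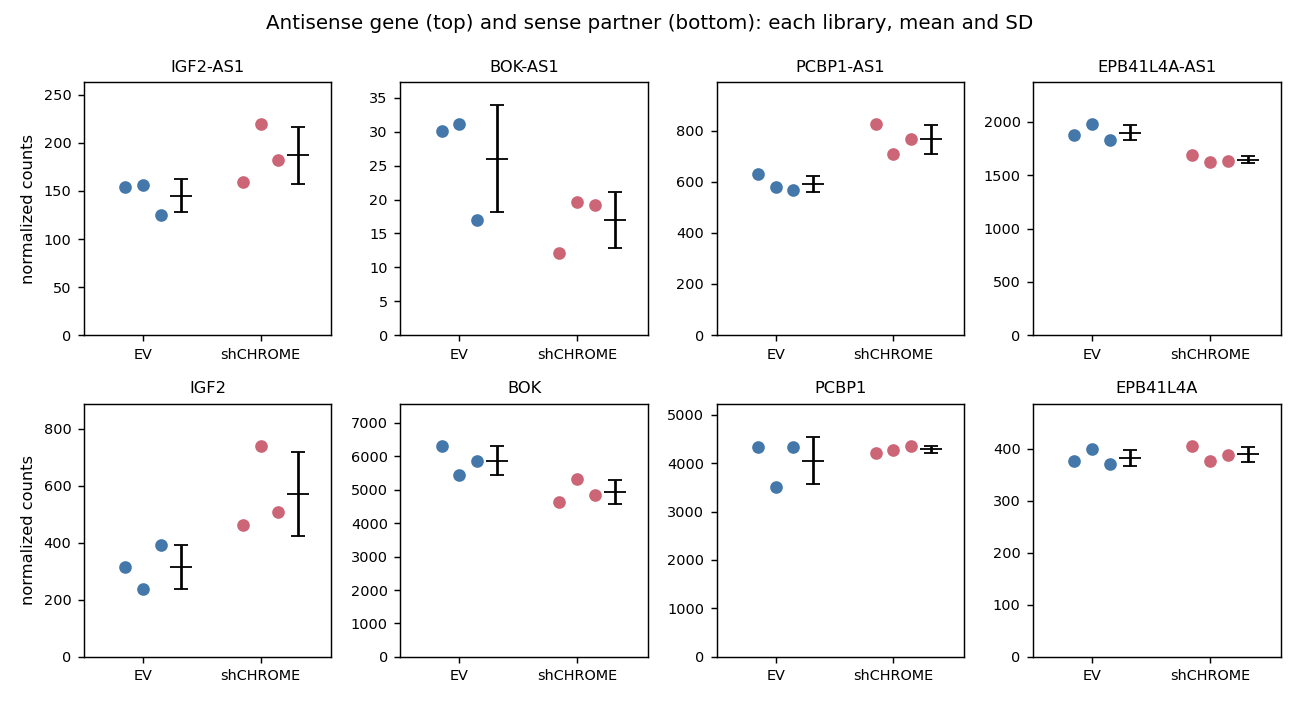
Normalized counts in each library (points; replicates a to c from left to right) with the mean and SD per group, for 4 antisense genes (top row) and their sense partners (bottom row). In each pair 1 gene passed the test and the other did not: IGF2 and PCBP1-AS1 were higher in shCHROME, BOK and EPB41L4A-AS1 lower.

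Of 35 listed factors of nuclear surveillance and decay, the machinery that degrades many such RNAs, 34 were in the table and tested, and 1 rose. That is 2.94%, beside 3.64% called higher and 10.5% called in either direction over all genes. They include subunits and cofactors of the RNA exosome, cap-binding proteins, 5′ exonucleases and the nonsense-mediated decay factors. EXOSC9, a core subunit of the exosome, rose 1.33-fold, from 323, 427 and 338 in EV to 485, 470 and 482 in shCHROME, without overlap (log2 difference 0.41, limma adjusted p = 0.0205). No factor fell by limma, edgeR or DESeq2, and 4 had an unadjusted p under 0.05 in limma, beside 3527 of all 14598 genes tested. EXOSC8, another subunit of the exosome ring, had a log2 difference of 0.21 (limma adjusted p = 0.116), the catalytic subunit DIS3 one of -0.10 (adjusted p = 0.296), and the decapping enzyme DCP2 one of -0.18 (adjusted p = 0.0745). The EXOSC9 call was lost when EV a, EV c or shCHROME c was left out. The median over the 34 was 0.02.

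The values closest to the minimum mean are given to show what the level rule kept and left out. Just inside were LINC00312 with a mean of 10.12 normalized counts, LINC00114 with 10.38 and LINC00102 with 10.92. Just outside were LINC00184 with 9.58, LINC00483 with 9.55 and LINC00471 with 9.42. LINC00312 ranged from 5.48 to 15.9 in EV and from 1.87 to 14.5 in shCHROME, which shows the spread within a group at this level.

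Recovered read totals were 29188213 to 35429420 in EV and 29477352 to 33911426 in shCHROME. Of 10 hepatocyte markers, 10 were tested and 6 fell (ALB, APOA1, TTR, SERPINA1, TF and AFP), with a summed level of 1433650 to 1553659 normalized counts in EV and 1152660 to 1349735 in shCHROME. The other 4 did not pass, with log2 differences of 0.17 for APOA2, whose groups did not overlap, 0.16 for FGB, -0.04 for APOB and -0.03 for HNF4A. The list thus did not move as one. Over all genes tested, 6.87% were called lower. The part of these 6 genes' fall in the changes of the LINC and antisense genes was not tested. In lists for blood, endothelial, stellate and fibroblast, and embryonic kidney cells, 9 of 21 markers were tested and 1 fell, PDGFRB, a receptor of stellate cells and fibroblasts (limma adjusted p = 0.000257). That 1 of 9 stands beside the same 6.87%. ACTA2, the other stellate and fibroblast marker tested, had a log2 difference of 0.12 with overlap (limma adjusted p = 0.433). Groups did not overlap for CDH5 (log2 difference 0.74, limma adjusted p = 0.213) and VWF (-0.16, adjusted p = 0.182), which did not pass. Summed levels over the libraries were 297 to 459 (EV) and 334 to 436 (shCHROME) for blood, 1056 to 1101 and 928 to 1007 for endothelium, 1591 to 1800 and 1451 to 1725 for stellate cells and fibroblasts, and 284 to 395 and 323 to 363 for embryonic kidney. CD3E, HBB, DCN, NEFL and NEFM were listed at 0 in all 6 libraries.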

How the data were processed

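RNA-seq was made from HepG2 libraries, 3 per group, grouped by sample title. Per the submitters' processing notes, the tools were STAR 2.5 (build hg19), featureCounts 1.5.2, and DESeq2 in a version written as 3.4, with annotation and strand setting not stated. The authors deposited 1 table whose library columns are a never-negative signal, reads divided by a size factor. The deposited table also holds the authors' mean, p-value (raw and adjusted) and log2 fold change for each gene, quoted only where named as such. It had 24656 rows, of which 1288 repeats were dropped.

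In each library, values were whole multiples of 1 read's value (0.914083 to 1.114941) within 0.01 reads for 100% of genes, so whole reads were recovered. The main test was limma 3.58.1 (R 4.3.3) with an intensity trend on log2(value + 1), over the 14598 genes that filterByExpr (edgeR 4.0.16) kept, with Benjamini-Hochberg adjustment and a threshold of 0.05. The log2(value + 1) scale understates changes of low genes, and folds are powers of it. The limma fit was also run on counts simulated from these data with known changes, and its outcome is not given here. Replicates differed by more than sampling noise (chi-square per degree of freedom 5.51 to 16.2).

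Alternatives were DESeq2 size factors, upper quartile, library totals or TMM as scaling, no filter beyond 1 read or 1 CPM in 3 libraries, a pseudocount of 0.1, a replicate block, edgeR quasi-likelihood, DESeq2 1.42.0 and leaving out each library. Names, gene classes, neighbours and promoters came from RefSeq (GRCh38.p14), and lengths and pair geometry from GENCODE 29, by symbol or identifier, without converting coordinates.

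Genes were named if they passed the test, were among the 5 most abundant LINC or antisense genes, were partners of these, belonged to the list with a described role, lay next to the minimum mean, or were surveillance factors that passed. A gene that this rule names is not reported here. Others are marked as chosen after their values were seen, and neighbours and older symbols of named genes are given beside them. The genes and lists were chosen with earlier results of these data known.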

Additional observations from a re-analysis of the deposited data

How the results depend on the processing

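Over 16 alternative settings, no named gene that passed the test changed direction. Among the 133 LINC and antisense genes, the count that rose was 2 with DESeq2 and 3 with library totals, against 1, and ran from 1 to 2 when libraries were left out in turn. The count that fell was 3 with library totals, 3 with no filter beyond 1 read and 3 with the replicate block, against 6, and ran from 2 to 5 with a library left out. Sense partners that rose numbered 3 with library totals and 1 to 2 with a library left out, against 1. Those that fell numbered 0 with library totals, 0 with the replicate block and 0 to 1 with a library left out, against 1. Surveillance factors that rose numbered 2 with library totals and 0 to 1 with a library left out, against 1, and those that fell 0 to 1, against 0. The cause of these moves was not tested. Over all genes, 1535 were called, and 844 to 1579 with a library left out (932 without EV a, 972 without EV c, 844 without shCHROME c). Requiring a mean of 5 or 20 in place of 10 left 1 higher and 6 lower, of 137 and 109 genes tested.

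With the replicate letter as a block, 4 genes of the set were called and 1113 genes in all (7.62%), and LINC00152, EPB41L4A-AS1 and LINC00176 lost their calls. These data do not show that the letters pair the libraries. The correlation of deviations between same-lettered libraries was -0.05 for a, -0.09 for b and 0.04 for c. None of the 3 EV libraries correlated best with the shCHROME library of its own letter, but EV c was nearly tied (0.0450 with shCHROME b, 0.0444 with shCHROME c). No label says that a letter marks a shared batch. With 3 libraries per group, correlations this small cannot decide whether it does. At a mean of 10 to 50 normalized counts the median half-width of the 95% interval was 0.71 on the log2 scale, and the part of read depth in that width was not tested.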

Other observations

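Some of the less abundant antisense genes had groups that did not overlap and yet did not pass the test. Over all 84 antisense genes the groups did not overlap in 18 (21.4%), 9 higher and 9 lower in shCHROME, beside 28.0% of all genes tested. They are named after their values were seen. FAS-AS1, opposite the death receptor gene FAS, had 6.69, 18.3 and 16.9 normalized counts in EV and 29.9, 19.6 and 28.7 in shCHROME (log2 difference 0.94, limma adjusted p = 0.133), and FAS had a log2 difference of 0.16 (adjusted p = 0.273). KANSL1-AS1 had 8.92, 9.14 and 8.96 in EV and 13.1, 18.6 and 21.3 in shCHROME (log2 difference 0.87, limma adjusted p = 0.166), while KANSL1, a chromatin regulator, had a log2 difference of 0.15 (adjusted p = 0.187). Every EV value of KANSL1-AS1 was under 10, so this antisense gene met the minimum mean only through shCHROME, where it was higher. KTN1-AS1 and RBM26-AS1 had log2 differences of 0.54 and 0.49 (limma adjusted p = 0.194 and 0.158). In the other direction CFLAR-AS1 had 31.2, 17.4 and 23.9 in EV and 14.9, 14.5 and 15.9 in shCHROME (log2 difference -0.61, limma adjusted p = 0.28).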
